A study of Mus musculus with 2 samples.

Results

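The transcripts of the activin and inhibin system were described in foetal mouse gonadal somatic cells. The genes were the inhibin subunit genes *Inha*, *Inhba* and *Inhbb*, the antagonist genes *Fst* and *Fstl3*, and the receptor genes *Acvr1b*, *Acvr2a* and *Acvr2b*. They were chosen by name and matched through their Ensembl identifiers to the table of gene counts, of which they are 8 of 42422 genes. All 8 were among the 15125 genes that passed a filter on low counts and were tested.

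RNA-seq was performed on 40 libraries of GFP-negative somatic cells, sorted from E12.5 gonads either before culture or after gonads with their mesonephros had been cultured for 24 or 72 h, with the mesonephros removed before sorting. Embryos were wild type and came from ASMU Swiss mice crossed with mice carrying the *Oct4*-eGFP transgene on a 129svJT2 background, in which germ cells are GFP-positive. XX and XY cells were collected before culture and after 24 and 72 h with the vehicle DMSO, and XY cells after 24 and 72 h with BGJ398, an inhibitor of FGF receptors (FGFRi), or PD0325901, an inhibitor of MEK1/2 (MEKi), each at 500 nM. This gave 10 groups of 4 libraries, and several gonads were pooled for a replicate. Every group started from E12.5 embryos, no XX cells were treated with an inhibitor, and all groups carry the transgene.

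Total counts per library were between 1380707 and 4836550, with a median of 2248854. Libraries were made in 2 pools. The first held all cells before culture and the DMSO and MEKi cells of 24 h, and the second held the FGFRi cells of 24 h and every 72 h group. Groups were compared directly only within a pool, and levels from different pools are given side by side with no test. Where a sex difference or MEKi effect at 72 h is tested against that at 24 h, each is taken within its own pool, and pool and time cannot be told apart. The Sertoli cell markers summed to between 586.6 and 1769 CPM, the count relative to the scaled library size, in XY libraries and between 157 and 267 CPM in XX libraries. Conversely, the pre-granulosa cell markers summed to between 260.4 and 359 CPM in XY and between 1572 and 2156 CPM in XX libraries. Both sums thus followed the labelled sex in every library. Single markers did not all do so: of the 9 Sertoli cell markers, 8 were lower and 1 was higher in XX cells after 24 h with DMSO. Here and later, marker sums run over all listed markers, and counts of higher or lower markers are of DEGs among those tested. Erythroid, endothelial, macrophage and germ cell markers were present in all groups, so the sorted cells were a mixture, and in such bulk samples fewer cells of a type and less RNA per cell cannot be told apart.

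Activins are dimers of the beta subunits encoded by *Inhba* and *Inhbb*, and inhibins are dimers of the alpha subunit encoded by *Inha* with a beta subunit. Activins bind the type II receptors ACVR2A and ACVR2B, which recruit and phosphorylate the type I receptor ACVR1B, and the signal passes to the nucleus through SMAD2 and SMAD3. Inhibins compete for the type II receptors, while follistatin (*Fst*) and follistatin-like 3 (*Fstl3*) are secreted proteins that bind activins and keep them from their receptors. In the foetal gonad, *Fst* is known as a gene of the early ovary, where it acts downstream of WNT4, and activin from the foetal testis interstitium is known to promote Sertoli cell proliferation.

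The genes lie on 6 chromosomes of GRCm39, by GENCODE release M39. *Inha* lies at chr1:75482196-75489223 on the plus strand, *Inhbb* at chr1:119343193-119350021 on the minus strand and *Inhba* at chr13:16186373-16206206 on the plus strand. *Fst* lies at chr13:114588731-114595521 on the minus strand and *Fstl3* at chr10:79613096-79618464 on the plus strand. *Acvr1b* at chr15:101071921-101111565, *Acvr2a* at chr2:48703743-48793283 and *Acvr2b* at chr9:119231103-119271213 are all on the plus strand. Each of the genes overlaps an annotated gene on the opposite strand, protein coding in the case of *Prss57* at *Fstl3*, *Obsl1* at *Inha* and *Orc4* at *Acvr2a*. The study's methods, which cover germ cell libraries, describe reads in the sense direction of the cDNA. Only if the counting ignored strand could reads of such partners not be told apart. *Acvr1b* also holds the microRNA gene *Mir6962* on its own strand.

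Because *Fst* and *Inhba* differed most between XX and XY cells and *Fstl3* changed with both inhibitors, the 250 bases before the start of their canonical transcripts are shown, in the direction of transcription. The *Fst* sequence is chr13:114595522-114595771 on the minus strand, the *Inhba* sequence chr13:16188733-16188982 on the plus strand and the *Fstl3* sequence chr10:79612846-79613095 on the plus strand.
*Fst*: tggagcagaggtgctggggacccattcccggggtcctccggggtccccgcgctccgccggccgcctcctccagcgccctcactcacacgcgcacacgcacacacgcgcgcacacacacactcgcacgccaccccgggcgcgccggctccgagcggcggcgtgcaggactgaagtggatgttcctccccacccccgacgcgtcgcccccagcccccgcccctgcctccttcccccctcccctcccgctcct
*Inhba*: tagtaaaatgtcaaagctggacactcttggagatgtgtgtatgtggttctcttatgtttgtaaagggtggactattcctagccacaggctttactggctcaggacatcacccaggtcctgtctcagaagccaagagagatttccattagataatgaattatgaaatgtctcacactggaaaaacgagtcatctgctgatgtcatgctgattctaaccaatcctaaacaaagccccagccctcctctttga
*Fstl3*: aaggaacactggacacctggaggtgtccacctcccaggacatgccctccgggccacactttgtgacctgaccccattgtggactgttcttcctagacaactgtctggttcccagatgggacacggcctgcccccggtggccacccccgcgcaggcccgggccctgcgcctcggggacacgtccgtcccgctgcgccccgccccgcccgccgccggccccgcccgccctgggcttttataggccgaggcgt
Bases G and C made up 75.6% of the *Fst*, 70.4% of the *Fstl3* and 43.2% of the *Inhba* sequence, against a median of 53.2% over 21770 protein-coding genes. The dinucleotide CG occurred 30 times at *Fst*, 21 times at *Fstl3* and 1 time at *Inhba*, against a median of 8. *Inhba* was also the lowest of the 8 genes in both, the others holding 57.6% or more G and C and 16 or more CG. On either strand, the AP-1 motif TGANTCA, the cAMP response element TGACGTCA and the NR5A1 motif AAGGTCA had no match in the 250 bases of any of the 8 genes, so no letters are in capitals. Over all genes, 6.17% of these windows held the AP-1 motif, 1.69% the cAMP response element and 3.93% the NR5A1 motif. The *Inhba* window lies inside the annotated gene, which begins at 16186373, and the *Inha* window ends inside its gene. For both, the values describe the canonical start only, and starts further upstream were not examined.

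*Fst* was the gene with the largest difference between XX and XY cells and *Inhba* had the largest difference in the other direction. Before culture, *Fst* was at 205, 254, 299 and 305 CPM in the XX libraries and at 1.03, 1.30, 1.43 and 2.28 CPM in the XY libraries, where these stand for 2 to 4 counts. *Inhba* was at 0, 1.77, 5.55 and 10.2 CPM in XX and at 26.2, 33.0, 37.3 and 53.0 CPM in XY cells. The library without an *Inhba* count allows a level of up to 2.31 CPM, the worth of 3 counts, with counting error only. XX and XY libraries did not overlap for either gene.

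The fold changes of XX against XY cells before culture were 7.43 ± 0.27 (log2 ± SE, edgeR quasi-likelihood test, FDR = 1.74e-28) for *Fst* and -2.88 ± 0.29 (FDR = 5.34e-12) for *Inhba*. Genes with an FDR below 0.05, adjusted over the 15125 genes, and a change of 1.5-fold or more were called differentially expressed (DEGs). By this rule 4 of the 8 genes differed between XX and XY cells before culture, where 17.3% of all genes tested did. The others were *Fstl3*, higher in XX cells by 1.34 ± 0.29 (FDR = 0.000292), and *Inhbb*, for which the change of XX against XY cells was -0.85 ± 0.19 (FDR = 0.000516). *Fstl3* was at 12.8, 15.5, 16.3 and 17.2 CPM in XX and at 2.84, 6.69, 6.96 and 7.18 CPM in XY libraries. *Inhbb* was at 76.9, 80.8, 82.9 and 108 CPM in XX and at 143, 156, 167 and 168 CPM in XY libraries. Both genes were free of overlap between the sexes. Under voom with quality weights and treat, the study's own procedure, which tests whether a change exceeds 1.5-fold, the calls of *Fstl3* (FDR = 0.215) and *Inhbb* (FDR = 0.397) were lost and those of *Fst* and *Inhba* were kept.

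The XX to XY difference of *Fst* became smaller in culture. In XX cells, *Fst* was at 70.5, 89.9, 95.3 and 121 CPM after 24 h and at 74.7, 79.3, 82.2 and 92.7 CPM after 72 h. In XY cells it was at 2.68, 3.21, 4.23 and 4.67 CPM after 24 h and at 6.48, 7.66, 9.44 and 16.2 CPM after 72 h. XX libraries thus stayed above all XY libraries at each time. The change of XX against XY cells was 4.69 ± 0.22 at 24 h (FDR = 9.89e-24) and 3.06 ± 0.21 at 72 h (FDR = 1.98e-17). The difference between the sexes at 24 h was lower than before culture by -2.75 ± 0.48 (edgeR interaction, FDR = 7.31e-05), and that at 72 h, in the other pool, was lower than at 24 h by -1.63 ± 0.34 (FDR = 0.00226).

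*Inhba* remained higher in XY cells through culture. It was at 19.4, 20.3, 21.3 and 22.4 CPM in XX cells and at 154, 169.7, 211 and 235 CPM in XY cells after 24 h with DMSO. After 72 h it was at 33.4, 42.3, 42.5 and 52.2 CPM in XX and at 244, 263, 273 and 279 CPM in XY cells. The change of XX against XY cells was -3.20 ± 0.18 at 24 h (FDR = 1.51e-20) and -2.66 ± 0.17 at 72 h (FDR = 3.96e-18). Neither step between times changed it past the threshold, with interactions of -0.32 ± 0.39 (FDR = 0.744) and 0.55 ± 0.26 (FDR = 0.368). After 24 h, 3 of the 8 genes differed between XX and XY cells against 19.6% of all genes, and after 72 h 4 of the 8 did against 20.3%.

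*Fstl3*, which binds activin as follistatin does, was higher in XX cells at first and lower in them at the end. After 24 h it was at 17.4, 19.8, 20.3 and 24.5 CPM in XX and at 5.56, 6.46, 7.39 and 9.27 CPM in XY cells. After 72 h it was at 9.84, 9.92, 10.6 and 12.7 CPM in XX and at 15.0, 16.2, 22.7 and 29.8 CPM in XY cells. The sexes did not overlap at either time, and their order turned. The change of XX against XY cells was 1.56 ± 0.24 at 24 h (FDR = 6.87e-07) and -0.96 ± 0.25 at 72 h (FDR = 0.00222). The difference between these was -2.53 ± 0.35 (FDR = 2.43e-06). Under voom and treat the call at 72 h was lost (FDR = 0.604).

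*Inha*, the alpha subunit that makes a dimer an inhibin, also changed its order between the sexes. Before culture it was at 95.9, 108, 122 and 173 CPM in XX and at 153, 169, 170.0 and 206 CPM in XY cells, which overlapped. After 72 h it was at 819, 868, 887 and 988 CPM in XX and at 365, 384, 449 and 489 CPM in XY cells, so that every XX library was above every XY library. The change of XX against XY cells was -0.49 ± 0.15 before culture (FDR = 0.0124), 0.52 ± 0.14 at 24 h (FDR = 0.00270) and 1.08 ± 0.14 at 72 h (FDR = 8.52e-09). Of these only the last passed the fold threshold in the edgeR test of all libraries. Without XX replicate F2 the value before culture was -0.70, and without XX replicate F4 that at 24 h was 0.62, and both were then DEGs. The difference between the sexes moved by 1.01 ± 0.20 from before culture to 24 h (FDR = 0.000546), and without the filter on low counts it was also called from 24 to 72 h (0.59, FDR = 0.00784).

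*Inhbb* lost its XY bias in culture. After 24 h it was at 83.0, 104, 106 and 118 CPM in XX and at 49.0, 64.2, 76.3 and 108 CPM in XY cells. The change of XX against XY cells was then 0.47 ± 0.19 (FDR = 0.0613). After 72 h *Inhbb* was at 73.2 to 111 CPM in XX and 68.1 to 99.2 CPM in XY cells, with the change at 0.09 ± 0.20 (FDR = 0.785). The sexes overlapped at both times. The difference between the sexes moved by 1.32 ± 0.27 from before culture to 24 h (FDR = 0.000648). From before culture to 24 h, 3 of the 8 genes, *Fst*, *Inha* and *Inhbb*, had such a moved difference, against 6.20% of all genes, and from 24 to 72 h *Fst* and *Fstl3*, 2 of the 8, against 2.04%. With XY DMSO replicate M2 of 24 h left out, the *Inhbb* value at 24 h was 0.67 and *Inhbb* was a DEG. Under voom and treat, the calls of all 3 genes in the first interval and of *Fst* in the second were lost. Markers of other cells differed between the sexes as well: summed interstitial progenitor markers were between 1168 and 1414 CPM in XY and between 559 and 721 CPM in XX cells before culture, and summed foetal Leydig cell markers were between 158 and 310.0 CPM in XY and between 79.2 and 123 CPM in XX cells, where *Insl3*, which defines foetal Leydig cells, had no count in any XX group. The interstitial progenitor markers stayed lower in XX cells, all 6 being DEGs at 24 and at 72 h. The Leydig sums were between 156 and 198 CPM in XX against 655 and 963 CPM in XY cells at 24 h, with 4 of 5 markers lower, but overlapped at 72 h, at 487 to 604 CPM in XX and 409 to 614 CPM in XY cells, with 3 of 5 lower and 1 higher. Endothelial markers were lower in XX cells for 4 of 8 before culture, 7 of 8 at 24 h (96.2 to 121 against 191 to 289 CPM) and 1 of 8 at 72 h, and erythroid markers for 1, 5 and 1 of 6, with sums at 24 h of 587 to 1030.5 against 1089 to 5195 CPM. Of the 6 germ cell markers tested 3 were lower in XX cells before culture, 2 were higher at 24 h, and 1 was higher and 2 lower at 72 h, and of the 7 macrophage markers 1 was lower at 24 and 1 at 72 h. Of the 6 mesonephros or duct epithelium markers tested, 2 were higher in XX cells before culture, 5 at 24 h and 5 at 72 h, when the 7 listed markers summed to 338 to 365 CPM against 103 to 185 CPM. Their part in the differences of the 8 genes was not tested.

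**Figure D1:**
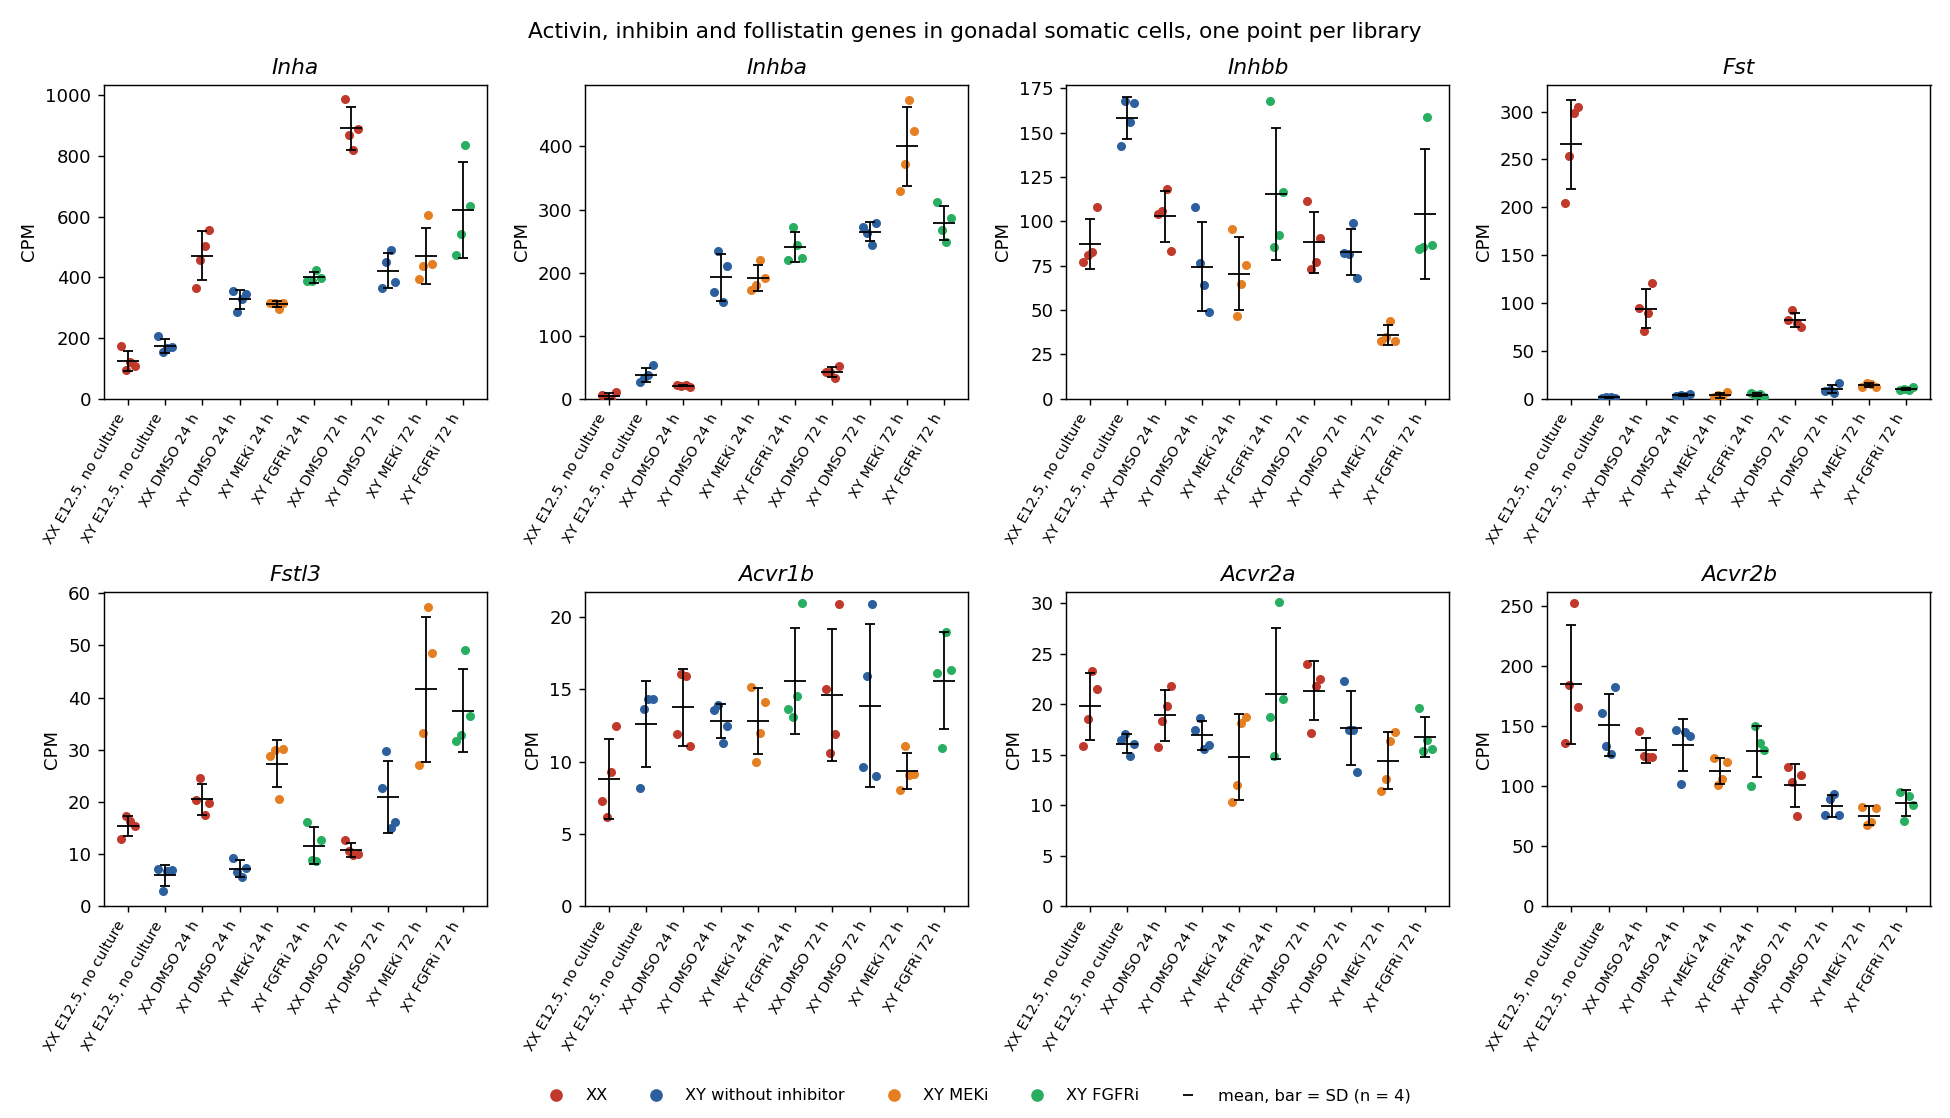
CPM of the 8 genes (vertical axes, linear from 0) in each of the 40 libraries by group, with the mean and SD of the 4 libraries. *Fst* was at 70.5 CPM or more in every XX library and at 16.2 CPM or less in every XY library, *Inhba* rose in culture in both sexes, and *Inhbb* was lowest in the XY MEKi cells of 72 h.

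**Figure D2:**
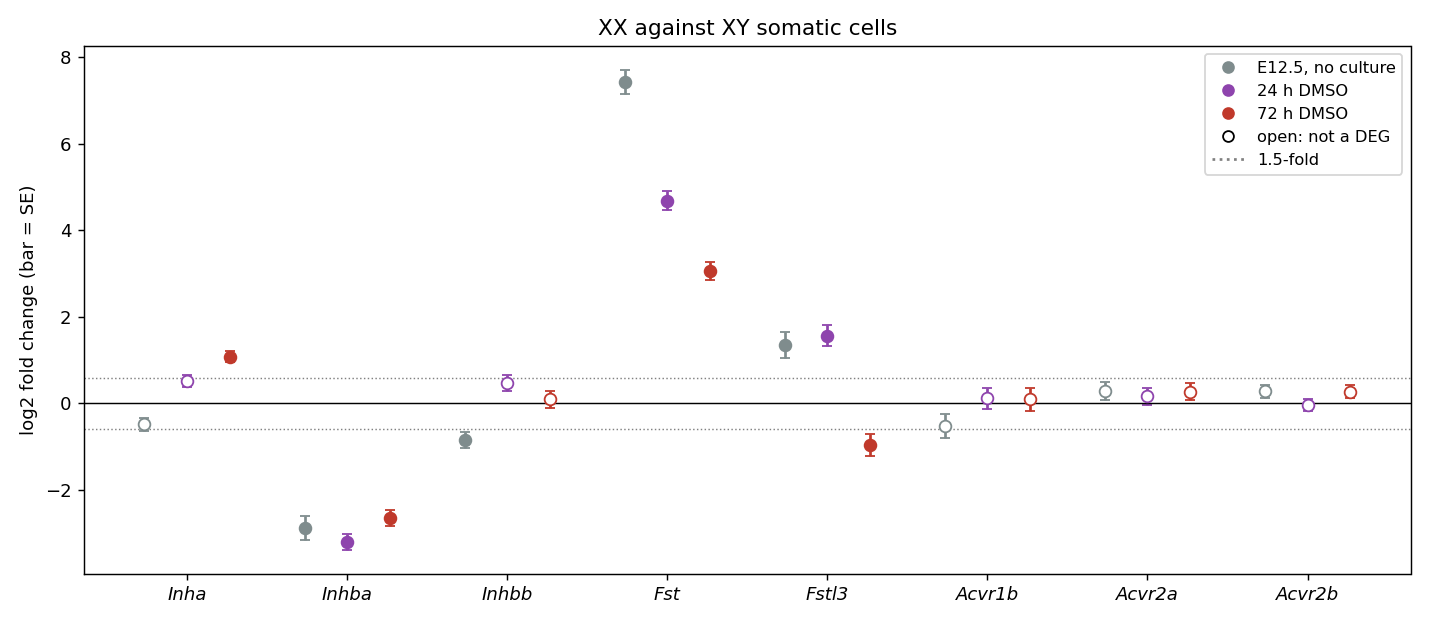
Log2 fold change of XX against XY cells (vertical axis, bars are SE) for each gene before culture and after 24 and 72 h with DMSO, with filled points for DEGs and dotted lines at a 1.5-fold change. *Fst* fell from 7.43 to 3.06 with time in culture, *Inhba* stayed between -3.20 and -2.66, and *Fstl3* went from 1.56 at 24 h to -0.96 at 72 h.

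Within a sex, the subunit genes responded to the first 24 h of culture. In XY cells, *Inhba* rose by 2.34 ± 0.18 (FDR = 3.26e-15) and *Inha*, from 153 to 206 CPM before culture to 285 to 356 CPM, rose by 0.91 ± 0.14 (FDR = 2.16e-06), while *Inhbb* fell from 143 to 168 CPM to 49.0 to 108 CPM, a change of -1.09 ± 0.19 (FDR = 1.36e-05). *Fst* also passed the thresholds in XY cells at 1.24 ± 0.48 (FDR = 0.04998), but between counts of 2 to 4 and of 9 to 17, and its call was lost without 7 of the 8 libraries in turn, all but XY DMSO replicate M4, with the FDR reaching 0.136, and with RLE scaling (FDR = 0.0524). In all, 4 of the 8 genes were DEGs between XY cells before culture and after 24 h, against 14.4% of all genes. Under voom and treat only *Inhba* remained a DEG there.

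In XX cells, 3 of the 8 genes were DEGs after 24 h of culture, against 7.73% of all genes, and all 3 were DEGs under voom and treat as well. *Inha* rose from 95.9 to 173 CPM to 366, 456, 504 and 557 CPM, a change of 1.92 ± 0.15 (FDR = 2.24e-14). *Inhba* rose by 2.03 ± 0.30 (FDR = 1.42e-06). *Fst* fell, with a change of -1.50 ± 0.15 (FDR = 1.13e-10). The libraries of before culture and of 24 h did not overlap for any of the 3. *Inhbb*, which fell in XY cells, was at 0.23 ± 0.19 (FDR = 0.508) in XX cells. Erythroid markers moved with culture in both sexes, all 6 being lower after 24 h, from summed levels of 6051 to 10407 CPM to 587 to 1030.5 CPM in XX cells and from 9602 to 11741 CPM to 1089 to 5195 CPM in XY cells. In XY cells 4 of the 5 foetal Leydig cell markers tested were higher after 24 h, with a median change of 2.10 and sums going from 158 to 310.0 CPM to 655 to 963 CPM. Sertoli cell markers were lower for 6 of 9 there, with a median of -0.86 and sums going from 1609 to 1769 CPM to 789 to 1284 CPM. Pre-granulosa markers were higher for 4 and lower for 2 of 7, 2 of 6 interstitial progenitor markers were higher and 2 of 7 macrophage markers lower. In XX cells 4 of the 6 germ cell markers tested were higher, at sums of 100.1 to 224 CPM against 61.9 to 86.7 CPM, 4 of 7 macrophage markers were lower, at 20.1 to 26.6 CPM against 48.8 to 77.8 CPM, and 2 of 5 Leydig markers were higher and 1 lower. The part of these cells was not tested. Between DMSO cells of 24 and 72 h, which came from different pools, *Inha* was at means of 471 and 891 CPM in XX and of 328 and 421 CPM in XY cells, *Inhba* at 20.8 and 42.6 CPM in XX and at 192 and 265 CPM in XY cells.

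*Fstl3* changed under MEKi by 24 h. After 24 h, *Fstl3* was at 20.6, 28.9, 29.9 and 30.1 CPM with MEKi, against 5.56 to 9.27 CPM with DMSO, so that all MEKi libraries were above all DMSO libraries and 3 of them above the XX DMSO range of 17.4 to 24.5 CPM. The change was 1.95 ± 0.24 (FDR = 7.69e-08). It was the only DEG among the 8 genes at 24 h with edgeR, against 3.27% of all genes tested, and it was also a DEG under voom and treat. The subunit genes were at -0.08 ± 0.14 (*Inha*), 0.00 ± 0.15 (*Inhba*) and -0.06 ± 0.20 (*Inhbb*), and *Fst* was at 0.01 ± 0.38 on counts of 4 to 17. The FDR of these genes and of the receptors was 0.408 or more.

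After 72 h with MEKi, 3 of the 8 genes were DEGs, against 6.47% of all genes, and the beta subunit genes moved in opposite directions. *Inhbb* was at 32.4, 32.7, 34.8 and 44.0 CPM with MEKi and at 68.1, 81.5, 82.0 and 99.2 CPM with DMSO, a change of -1.18 ± 0.21 (FDR = 0.000118). *Inhba* was at 329, 372, 425 and 474 CPM with MEKi against 244 to 279 CPM with DMSO, a change of 0.60 ± 0.15 (FDR = 0.00554). *Fstl3* was at 27.02, 33.2, 48.5 and 57.5 CPM against 15.0 to 29.8 CPM, a change of 0.99 ± 0.21 (FDR = 0.00130). MEKi and DMSO libraries did not overlap for *Inhbb* and *Inhba*, and overlapped for *Fstl3*.

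*Inhba* lay close to the fold threshold. It was below it without XY MEKi replicate M4 (0.50), without XY MEKi replicate M5 (0.57) and without XY DMSO replicate M5 (0.56), with the FDR at 0.0423 or less each time. It was also below it with no composition scaling (0.56, FDR = 0.0116) and when only the groups compared were fitted (0.58, FDR = 0.000146), and under voom and treat none of the 3 remained a DEG. *Fst* was at 0.53 ± 0.25 (FDR = 0.169), with 11.9, 12.3, 15.7 and 16.1 CPM under MEKi. Without XY DMSO replicate M6 the *Fst* value was 0.85 and *Fst* was a DEG (edgeR FDR = 0.0346), at a level still under that of every XX library. *Inha* was at 0.16 ± 0.14 (FDR = 0.479), with 396, 437, 443 and 606 CPM.

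The change of *Inhbb* with MEKi differed between 72 and 24 h by -1.12 ± 0.29 (edgeR interaction, FDR = 0.0354), the only one of the 8 genes to pass, against 1.41% of all genes. This call was lost in 10 of 16 cases where 1 library was left out, with the FDR up to 0.129 without XY MEKi replicate M1 of 24 h, and under voom and treat. The libraries whose loss ended it were XY DMSO replicates M4 and M5 and XY MEKi replicates M1 and M6 of 24 h, and XY DMSO replicates M2, M4 and M5 and XY MEKi replicates M2, M3 and M5 of 72 h. The interactions of *Inhba*, at 0.60 ± 0.21 (FDR = 0.156), and of *Fstl3*, at -0.95 ± 0.33 (FDR = 0.139), did not pass, but without the filter on low counts that of *Inhba* did (0.63, FDR = 0.00965). The MEKi effect was also lower at 72 than at 24 h for 3 of 9 Sertoli cell markers and higher for 3 of 5 foetal Leydig cell markers.

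Markers of other cell types moved under MEKi too. All 8 endothelial markers at 24 h and 6 of 8 at 72 h were lower, with sums of 36.0 to 54.5 CPM against 191 to 289 CPM at 24 h and of 31.4 to 44.1 CPM against 63.8 to 126 CPM at 72 h, and no marker was without counts in a group. At 24 h, 4 of the 6 germ cell markers tested were higher, at sums of 252 to 463 CPM against 103 to 153 CPM. Of the 9 Sertoli cell markers 2 were higher and none was lower at 24 h, with a median change of 0.36 and sums of 918 to 1558 CPM against 789 to 1284 CPM. At the same time 2 of 7 pre-granulosa markers were higher, at 302 to 349 CPM against 269 to 325 CPM, 1 of the 5 Leydig markers was lower, and 1 of the 7 macrophage markers was lower, 6 being at an unadjusted p under 0.05, at 7.31 to 19.6 CPM against 24.9 to 63.1 CPM. At 72 h, 4 of the 5 foetal Leydig cell markers tested were higher, at 842 to 1323 CPM against 409 to 614 CPM, and of the 9 Sertoli cell markers 4 were lower and 1 was higher, at 586.6 to 805 CPM against 699 to 1001 CPM. Of the 7 macrophage markers tested 6 were lower at 72 h, when the 8 listed markers summed to 22.6 to 33.2 CPM against 45.7 to 136 CPM, and of the 6 mesonephros or duct epithelium markers tested 2 were higher at 24 h, when the 7 listed markers summed to 266 to 343 CPM against 176 to 209.8 CPM, and 1 at 72 h, at 152 to 208 CPM against 103 to 185 CPM. The part of these cells in the changes of *Fstl3*, *Inhba* and *Inhbb* was not tested.

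FGFRi was tested against DMSO at 72 h only, because its 24 h libraries and those of DMSO lay in different pools. After 72 h, *Fstl3* was at 31.7, 32.8, 36.5 and 49.0 CPM with FGFRi against 15.0, 16.2, 22.7 and 29.8 CPM with DMSO, a change of 0.85 ± 0.22 (FDR = 0.0204) without overlap. It was 1 DEG of the 8 genes, against 1.80% of all genes. The call was lost without FGFRi replicate M5 (0.69, FDR = 0.195) and without DMSO replicates M2 (FDR = 0.0537), M5 (FDR = 0.0702) or M6 (FDR = 0.0962), as well as under voom and treat. *Inha* was at 474, 542, 636 and 835 CPM with FGFRi, and its change of 0.57 ± 0.14 (FDR = 0.0147) missed the fold threshold. It passed that threshold without FGFRi replicate M2 (0.68) or M4 (0.63), without DMSO replicate M4 (0.61) or M5 (0.65), and without the filter on low counts (0.59).

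*Inhba*, at 248, 268, 286 and 312 CPM with FGFRi, had a change of 0.07 ± 0.15 (FDR = 0.892), and *Fst* one of 0.07 ± 0.27 (FDR = 0.945). *Inhbb* was at 84.6, 85.5 and 86.8 CPM in 3 of the FGFRi libraries and at 159 CPM in replicate M5, with a change of 0.34 ± 0.20 (FDR = 0.436) that was 0.05 without that library. Replicate M5 was also the highest of the 4 FGFRi libraries in *Fstl3* and *Inha*, and without it the number of DEGs between FGFRi and DMSO over all genes went from 273 to 90. Of the 7 macrophage markers tested, 6 were lower with FGFRi, at sums of 12.7 to 25.5 CPM against 45.7 to 136 CPM, 2 of the 6 mesonephros or duct epithelium markers were higher, at 212 to 252 CPM against 103 to 185 CPM. All 9 Sertoli cell markers had a positive change with FGFRi, between 0.25 and 0.90, of which 1 was a DEG, and summed to 969 to 1649 CPM against 699 to 1001 CPM. Of the 5 foetal Leydig cell markers 1 was higher, with a median change of 0.68 and sums of 535 to 985 CPM against 409 to 614 CPM, and of the 7 pre-granulosa markers 1 was higher and 1 lower. The part of these cells was not tested.

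Compared with each other at 72 h, MEKi and FGFRi differed in *Inhbb*, lower with MEKi by a change of -1.53 ± 0.21 (FDR = 5.05e-07), and the libraries did not overlap. This was 1 DEG of the 8 genes against 6.43% of all genes, and it was kept under voom and treat. *Inhba* was higher with MEKi at 0.53 ± 0.15 (FDR = 0.0145) but below 1.5-fold, and without MEKi replicate M2 it was at 0.60 and a DEG. *Acvr1b* was at -0.73 ± 0.26 (FDR = 0.0637), and without FGFRi replicate M4 at -0.87 and a DEG. *Fstl3* was at 0.15 ± 0.20 (FDR = 0.721). Sertoli cell markers were lower with MEKi than with FGFRi for 7 of 9, with a median change of -1.04. They summed to 586.6 to 805 CPM against 969 to 1649 CPM. Endothelial markers were lower for 4 of 8, at 31.4 to 44.1 CPM against 50.6 to 109 CPM. Of the 7 pre-granulosa markers 2 were higher and 1 was lower. Of 6 erythroid and 6 mesonephros or duct epithelium markers tested, 1 each was lower, and 1 of 5 Leydig and 1 of 6 interstitial progenitor markers were higher. Their part was not tested.

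Between FGFRi cells of 24 and 72 h, 4 of the 8 genes were DEGs, against 6.70% of all genes. This pool held no DMSO cells of 24 h, so the change with time has no DMSO control. *Fstl3* rose from 8.66, 8.93, 12.7 and 16.2 CPM to the levels above, by 1.69 ± 0.24 (FDR = 5.53e-07). *Fst* rose from 2.19 to 5.56 CPM to 9.21 to 12.2 CPM, by 1.34 ± 0.33 (FDR = 0.00412), and *Inha* from 386 to 425 CPM by 0.64 ± 0.14 (FDR = 0.000896). *Acvr2b* fell from 100.02 to 151 CPM to 71.3 to 95.6 CPM, with a change of -0.59 ± 0.15 (FDR = 0.00481). Over the same time 6 of 8 endothelial markers were lower, with a median change of -1.40 and sums going from 139 to 238 CPM to 50.6 to 109 CPM, and so were 2 of 6 erythroid markers, from 1331 to 4768 CPM to 445 to 1271 CPM, and 1 of 5 Leydig markers. Of the 7 pre-granulosa markers 1 was higher. Of the 9 Sertoli cell markers 1 was higher and 1 lower, as for the 6 mesonephros or duct epithelium markers tested. The part of these cells was not tested. The *Inha* value was 0.47 and no longer a call without replicate M5 of 72 h. That of *Acvr2b* was between -0.58 and -0.51 and below 1.5-fold without replicates M3, M4 or M5 of 24 h or M4 or M6 of 72 h. It was also -0.58 and below 1.5-fold with RLE scaling, with no composition scaling and with DESeq2, and under voom and treat *Fstl3* was the only one of the 4 to remain. At 24 h the FGFRi and DMSO libraries came from different pools, with means of 11.6 ± 3.55 and 7.17 ± 1.59 CPM (SD, n = 4) for *Fstl3*, of 240.1 ± 24.1 and 192 ± 37.2 CPM for *Inhba* and of 116 ± 37.3 and 74.4 ± 25.1 CPM for *Inhbb*. The XY DMSO means of 24 and 72 h, also from different pools, differed in the same direction as those of FGFRi for all 4 DEGs. They were 3.70 and 9.94 CPM for *Fst*, 7.17 and 20.9 CPM for *Fstl3*, 328 and 421 CPM for *Inha*, and 134 and 83.5 CPM for *Acvr2b*.

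**Figure D3:**
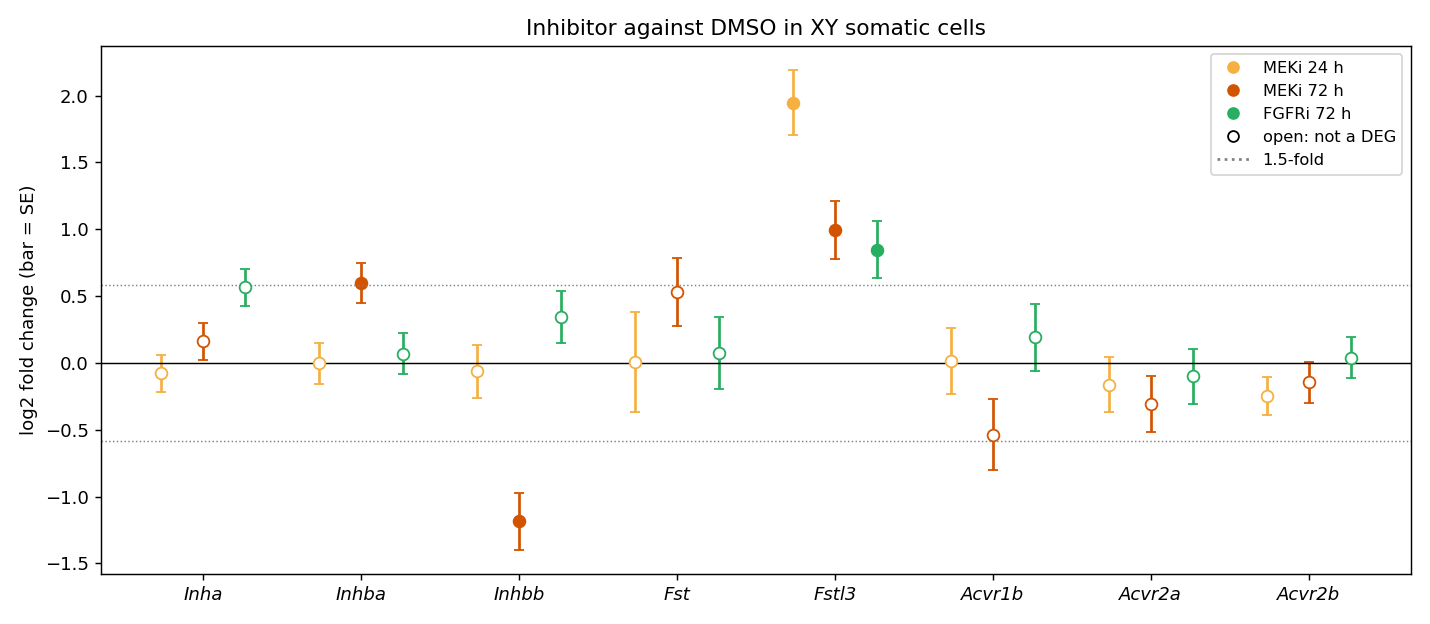
Log2 fold change of inhibitor against DMSO in XY cells (vertical axis, bars are SE) for MEKi at 24 and 72 h and FGFRi at 72 h, with filled points for DEGs and dotted lines at a 1.5-fold change. *Fstl3* was between 0.85 and 1.95 in all 3 comparisons, of which those at 72 h share their DMSO libraries, and *Inhbb* was at -1.18 with MEKi and at 0.34 with FGFRi after 72 h.

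The receptor genes varied less than the ligands and antagonists. *Acvr1b*, the type I receptor of activin, was between 6.19 and 21.0 CPM over all 40 libraries, and *Acvr2a*, a type II receptor, was between 10.3 and 30.1 CPM. *Acvr2b*, the other type II receptor, was between 67.6 and 253 CPM, with means of 185 ± 49.3 CPM in XX and 151 ± 25.9 CPM in XY cells before culture and of 101 ± 17.97 and 83.5 ± 9.20 CPM after 72 h with DMSO (SD, n = 4). When groups were ordered by their mean, every group overlapped the next in the order for each of the 3 receptor genes. Apart from *Acvr2b* in FGFRi cells, their FDR was below 0.05 only for *Acvr2b* in XX cells, at -0.49 ± 0.14 after 24 h of culture (FDR = 0.0136), which was below 1.5-fold. It was -0.61 and a DEG without XX replicate F2 of before culture. *Acvr1b* in XX cells rose past the threshold over the same 24 h only without XX replicate F5 of before culture, at 0.90 against 0.64 ± 0.27 (FDR = 0.112) with all libraries.

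The order of the groups was clearer for the others. For *Fst* the 3 XX groups led, with the XX cells before culture apart from the rest and the XX groups of 24 and 72 h overlapping. They were followed by the XY groups of 72 h, those of 24 h and XY cells before culture, with neighbours overlapping within these sets. The XY ranges of 72 and 24 h met at 1 MEKi library of 24 h with 7.29 CPM, and those of 24 h and before culture met at MEKi libraries of 1.71 and 1.96 CPM and an FGFRi library of 2.19 CPM. For *Inhba* the MEKi cells of 72 h led at 400.1 ± 62.8 CPM without overlap with the next group. The other cultured XY groups followed, each overlapping the next, and the XX DMSO cells of 72 h, at 42.6 ± 7.69 CPM, overlapped the XY cells before culture, at 37.4 ± 11.4 CPM. For *Inhbb* each group overlapped the next, from 158 ± 11.7 CPM in XY cells before culture down to 70.6 ± 20.6 CPM in MEKi cells of 24 h, and only the MEKi cells of 72 h, at 35.9 ± 5.45 CPM, stood apart.

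The balance of the subunit and antagonist counts within a library was taken as a description, with no test. These ratios depend on how well each transcript is captured, so they are compared between groups only. *Inhba* made up 4.37 ± 3.98% of the beta subunit counts (*Inhba* plus *Inhbb*) in XX and 18.8 ± 3.89% in XY cells before culture. After 24 h it made up 17.0 ± 1.62% in XX and 72.1 ± 8.49% in XY cells, and after 72 h 32.8 ± 4.60% and 76.2 ± 3.84% (SD, n = 4). MEKi cells of 72 h were at 91.0% to 92.9%, above every other library, where the XY DMSO libraries of 72 h were at 71.1% to 80.4% and the FGFRi libraries at 60.9% to 78.7%.

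*Inha* over the beta subunit counts was at 0.42 ± 0.51 on the log2 scale in XX and -0.17 ± 0.32 in XY cells before culture, which overlapped. The XX libraries were at 1.53 to 2.44 after 24 h and at 2.63 to 2.90 after 72 h, with no overlap with the XY DMSO libraries at -0.13 to 0.59 and 0.04 to 0.51. *Fst* over the beta subunit counts was at 1.53 ± 0.25 in XX cells before culture, at -0.41 ± 0.46 after 24 h and at -0.66 ± 0.31 after 72 h. In XY cells it was at -6.84 ± 0.39, -6.14 ± 0.28 and -5.18 ± 0.56. The sexes remained apart at each time, by a smaller distance later.

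**Figure D4:**
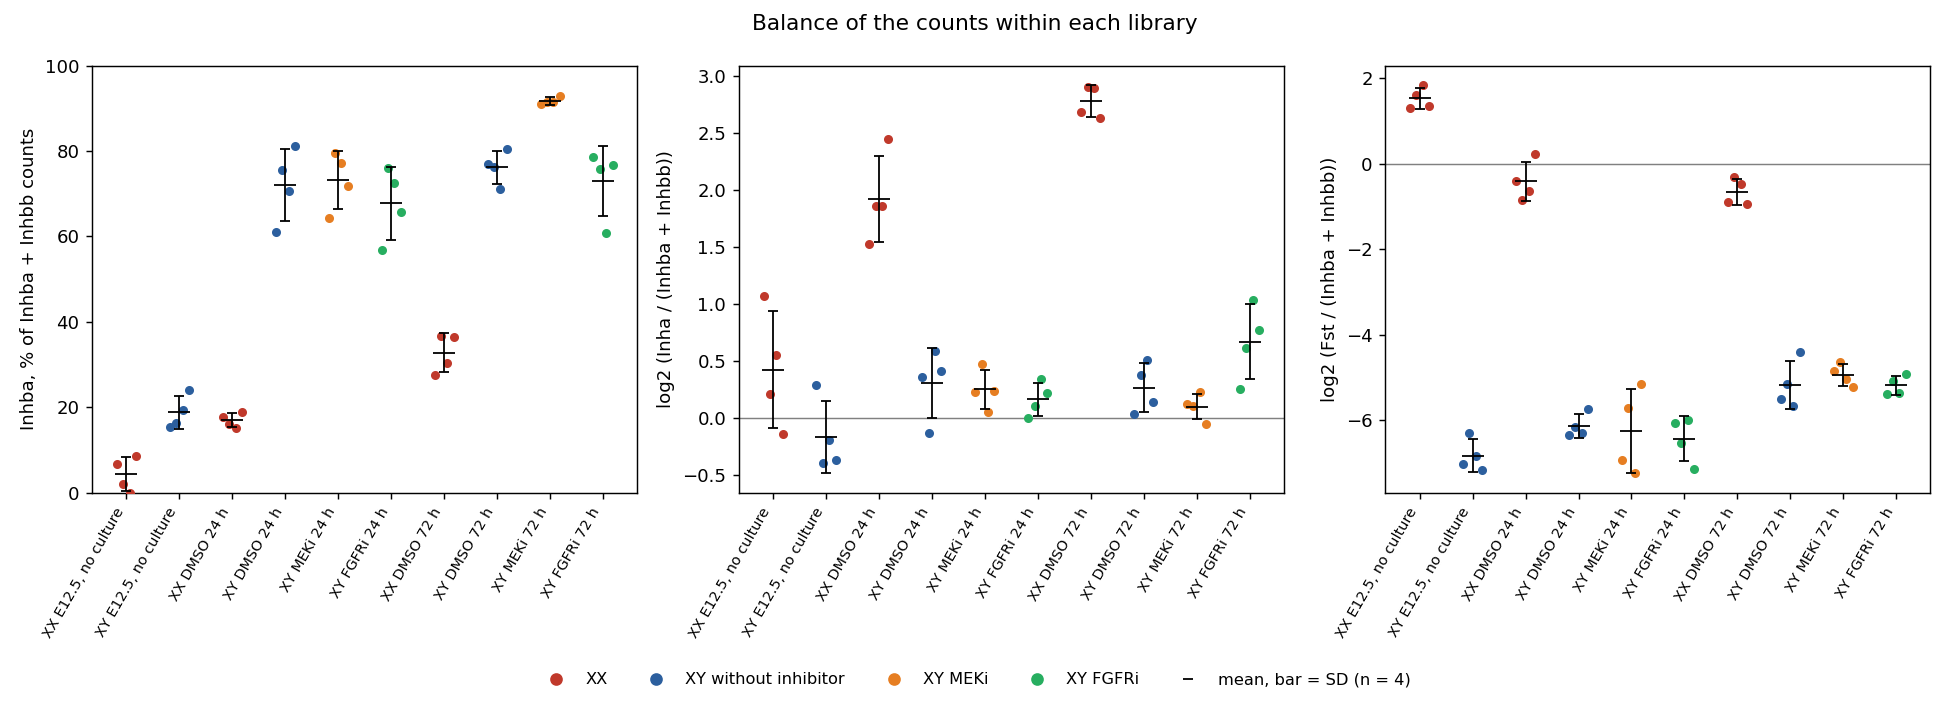
Share of *Inhba* in the beta subunit counts in percent (left), log2 of *Inha* over the beta subunit counts (middle) and log2 of *Fst* over the beta subunit counts (right) in each library by group, with the mean and SD of 4 libraries. MEKi cells of 72 h were at 91.0% to 92.9% *Inhba*, and *Inha* over beta subunits was at 1.53 or more in the cultured XX libraries and at 1.04 or less in the cultured XY libraries.

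Other genes of the pathway were described by counts on lists of gene names. Of the other ligands and ligand antagonists, 9 of 19 were tested, and between XX and XY cells at 72 h 1 was higher and 6 were lower in XX cells, where 9.47% of all genes were higher and 10.8% lower. The largest changes were those of *Fstl4* (-3.79 ± 0.56), *Lefty1*, an antagonist of nodal (-2.91 ± 0.91, on means of 0.235 and 2.05 CPM), *Tgfb1*, a TGF-beta ligand (-1.99 ± 0.42), and *Wfikkn2*, an inhibitor of myostatin and GDF11 (-1.81 ± 0.62). Among the 4 pro-protein convertases, which cleave the precursors of these ligands, *Pcsk6* was higher in XX cells at 213 ± 45.5 against 24.1 ± 6.55 CPM, a change of 3.15 ± 0.18 (FDR = 1.97e-20). Under MEKi, 1 ligand was lower at 24 h, where 1.29% of all genes were higher and 1.98% lower, and 1 was higher and 1 lower at 72 h, where these shares were 2.29% and 4.19%. *Tgfb1* was the lower one both times, at -1.25 ± 0.35 and -1.25 ± 0.38, and *Gdf11*, a further ligand of the activin type II receptors, was higher at 72 h by 0.81 ± 0.19 (FDR = 0.00349).

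Of the other receptors and co-receptors, 12 of 13 were tested, of which 1 was higher and 4 were lower in XX than in XY cells at 72 h. *Amhr2*, the type II receptor of anti-Müllerian hormone, was the higher one, at 409 ± 16.6 against 114 ± 22.1 CPM (1.84 ± 0.15, FDR = 1.66e-14). The type I receptor *Acvrl1* (-1.60 ± 0.26), the TGF-beta receptor *Tgfbr2* (-1.43 ± 0.20) and endoglin, *Eng* (-0.82 ± 0.32), were lower, and *Acvrl1* and *Eng* are known from endothelial cells. Under MEKi, *Eng* was lower at 24 h (-1.09 ± 0.30) and at 72 h (-1.01 ± 0.32), and *Acvrl1* was at -0.36 ± 0.23 (FDR = 0.465) and -0.01 ± 0.23 (FDR = 0.980). Endothelial markers were lower for 8 of 8 and 6 of 8 at these times, and for 1 of 8 in XX against XY cells at 72 h. The part of endothelial cells in these changes was not tested. *Tgfbr2* was lower under MEKi at 72 h (-0.75 ± 0.19). Under FGFRi at 72 h, where 0.866% of all genes were higher and 0.939% lower, *Amhr2* was higher (0.61 ± 0.15, FDR = 0.0197) and *Tgfbr2* lower (-0.69 ± 0.19, FDR = 0.0286).

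Of the genes that carry or regulate the SMAD2 and SMAD3 signal, 13 of 14 were tested. *Smad3* was higher in XX cells at 72 h, at 179.7 ± 18.7 against 64.9 ± 7.45 CPM (1.46 ± 0.13, FDR = 1.05e-13), and the inhibitory *Smad7* was lower (-0.86 ± 0.16). Under MEKi at 72 h 2 were lower, *Smad7* (-0.60 ± 0.16) and the SMAD corepressor *Skil* (-0.66 ± 0.17). Of 10 genes known to respond to activin or TGF-beta, 9 were tested. In XX against XY cells at 72 h 2 were higher and 5 lower, with *Lefty1* as above, *Ccn2*, a matricellular protein (-2.57 ± 0.26), and *Pmepa1*, a negative regulator of TGF-beta signalling (-1.09 ± 0.15), among them. Under MEKi at 72 h 4 were lower, *Ccn2* (-0.89 ± 0.22), *Skil* and *Smad7* among them. Under FGFRi *Cdkn1a*, the cell cycle inhibitor p21, was higher (0.89 ± 0.20, FDR = 0.00646). *Skil*, *Smad7* and *Lefty1* stand on 2 of these lists. The responsive DEGs thus went both ways between XX and XY cells. Under MEKi none was higher, with 1 lower at 24 h and 4 lower at 72 h. Of all genes 1.98% and 4.19% were lower there. The median change of the 9 responsive genes was -0.86 in XX against XY cells at 72 h. It was 0.05 and -0.33 under MEKi at 24 and 72 h and -0.17 under FGFRi at 72 h. Medians over all genes were between -0.01 and 0.00. Markers of several cell types also moved in these comparisons, as given above. Their part in the changes of the listed genes was not tested.

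The genes with the most similar pattern were taken as the 3 with the highest Pearson r over the 10 group means of log2 CPM, among 12817 genes with a mean of at least 5 CPM, as a description over groups that share libraries with the members. For *Fst* these were *Nucb2* (r = 0.996), *Lhpp* (0.981) and the collagen gene *Col12a1* (0.980). For *Inhba* they were *Stc1*, which encodes stanniocalcin (0.988), *Gm15261* (0.988) and *Mylk*, a myosin light chain kinase (0.987). *Fstl3* was most like *Utp23* (0.951), the amino acid transporter gene *Slc1a5* (0.926) and the tight junction gene *Cldn11* (0.897). *Inha* was most like *Parp8* (0.963), *Nxnl2* (0.952) and the transcription factor gene *Elf1* (0.951), and *Inhbb* most like *Smarca5* (0.946), *Ddah1* (0.925) and *Scrn2* (0.916). *Acvr1b* was closest to *Ddhd1* (0.971), *Acvr2a* to *Tmx3* (0.971) and *Acvr2b* to *Igdcc3* (0.983).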

How the data were processed

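RNA-seq was performed on FACS-sorted somatic cells in 40 libraries, 4 in each of 10 groups, assigned by the labels. The description of the first pool names 19 of its 20 libraries. The other, XY MEKi replicate M2 of 24 h, was placed by the pool's title, the deposited barcode list and the form of its name in the count table. The authors demultiplexed and mapped the reads with scPipe and Rsubread to GRCm39, assigned them to exons and counted unique molecular identifiers, and the deposited values are whole counts per gene, not normalised. The annotation release is not given in the sources used here. The methods describe the libraries of germ cells, and the same steps are assumed for the somatic cells. Priming at the poly(A) tail gives counts of transcript ends, so levels were not compared between genes.

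Here, names and positions came from GENCODE M39, which matched 40391 of 42422 identifiers. Counts were tested with edgeR 4.0.16 (R 4.3.3): filterByExpr by group left 15125 genes, TMM factors scaled the library sizes, and all 40 libraries entered a single quasi-likelihood fit of group means. DEGs passed an FDR of 0.05, adjusted over the 15125 genes, and changed by 1.5-fold or more. The SE is the log2 fold change divided by the square root of F, and p-values rest on how the 4 pools of gonads in a group vary. The steps were tested on simulated data. Alternatives were RLE or no composition scaling, no filter, DESeq2 1.42.0, voom with quality weights and treat (limma 3.58.1; the submitters' processing notes name limma and edgeR), only the groups compared, a replicate block, and leaving out each library. Log2 CPM for the most similar genes used a prior count of 2, and count ratios had 0.5 added to each side. Libraries of a group were checked for copies: over 60 pairs, chi-square per degree of freedom was 1.92 to 7.69. Intervals at 0 counts cover counting error only.

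All 8 genes are named, with up to 4 DEGs per pathway list by size of change and the 3 most similar genes per member. The members and lists were chosen with earlier results of these data known. Promoter windows came from the GRCm39 genome. The lists' counts and medians include 1 gene whose own values are not reported here. Germ cell data were not analysed here.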

Additional observations from a re-analysis of the deposited data

Results flagged for a closer look

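Of 130 groups of 4 values examined, CPM of the 8 genes and 5 count ratios in each group, 9 held a library whose gap to the nearest other exceeded Dixon's critical share of the group's range, where chance gives about 1 in 20. These were *Fstl3* at 2.84 CPM in XY replicate M3 before culture, which also had the lowest share of *Fstl3* in the *Fst* plus *Fstl3* counts at 55.6%, *Acvr1b* at 8.21 CPM in XY replicate M2 before culture, *Acvr2b* at 146 CPM in XX DMSO replicate F4 and at 102 CPM in XY DMSO replicate M3 of 24 h, *Fstl3* at 20.6 CPM and *Inha* at 296 CPM in MEKi replicate M4 of 24 h, and *Inhbb* at 159 CPM with an *Inhba* share of 60.9% in FGFRi replicate M5 of 72 h.

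Differences that themselves differed between times, by the edgeR interaction over all genes, were those between XX and XY cells from before culture to 24 h for *Fst* (-2.75), *Inha* (1.01) and *Inhbb* (1.32), from 24 to 72 h for *Fst* (-1.63) and *Fstl3* (-2.53), and that between MEKi and DMSO from 24 to 72 h for *Inhbb* (-1.12), all on the log2 scale. The libraries of 24 and 72 h in the last 3 came from different pools.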

How the results depend on the processing

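Of 727 values of a gene in a comparison under another setting, 674 kept their direction and their side of the thresholds, 28 fell below a threshold, 3 passed one and 22 changed sign. Of 1024 with a library left out, 940 kept both, 30 fell below, 12 passed and 42 changed sign. Every value that changed sign was no DEG with all libraries. Voom with treat, which tests against 1.5-fold, called fewer of the 8 genes: 2 in XX against XY cells before culture, 1 in XY cells from before culture to 24 h, 1 in FGFRi cells from 24 to 72 h and 1 in the XX to XY difference from 24 to 72 h. It called 0 for MEKi at 72 h (1 at an unadjusted p under 0.05), 0 for FGFRi at 72 h (0), 0 for the XX to XY difference from before culture to 24 h (3) and 0 for the MEKi effect at 72 h against 24 h (1), where edgeR called 3, 1, 3 and 1. Without the filter on low counts, 2 genes were called for FGFRi at 72 h and 2 for the MEKi effect at 72 h against 24 h. With 1 library left out, counts went from 0 to 2 for FGFRi at 72 h, 1 to 2 for MEKi against FGFRi and 0 to 1 for the MEKi effect at 72 h against 24 h. The depth limits *Fst* in XY cells, at 2 to 50 counts, and *Fstl3*, *Acvr1b* and *Acvr2a* at low counts.

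Libraries with the same replicate number did not deviate together, with r between -0.20 and 0.17, so the numbers were not taken as pairs. With the replicate block, 1 gene, *Fstl3*, was called in the XX to XY difference from 24 to 72 h, where *Fst* was not (-1.15, FDR = 0.209), and 0 (*Inhbb* at -0.91, FDR = 0.141) in the MEKi effect at 72 h against 24 h, *Fstl3* in XX against XY cells at 72 h (-1.002, FDR = 0.147) and *Inha* in FGFRi cells (0.57) were no longer DEGs, and signs changed for *Inhbb* (-0.11), *Acvr1b* (-0.23) and *Acvr2a* (-0.13) in XX against XY cells at 72 h, *Fst* (-0.16) and *Inhba* (0.0223) for MEKi at 24 h, *Inhbb* (0.0551) and *Acvr1b* (0.0417) in FGFRi cells from 24 to 72 h, and *Acvr2a* (-0.17) in the XX to XY difference from 24 to 72 h.

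Sign changes under other settings were *Acvr1b* (-0.0182, voom) in XY cells from before culture to 24 h, *Fst* (-0.0538 without scaling, -0.0136 without the filter), *Inhba* (0.0017 with RLE, 0.0702 with voom) and *Acvr1b* (-0.0412 without scaling, -0.0043 without the filter) for MEKi at 24 h, *Acvr1b* in FGFRi cells (0.0052 with RLE, 0.0080 without scaling, 0.0049 with DESeq2) and in the XX to XY difference from 24 to 72 h (0.0047 without scaling, 0.0048 without the filter, 0.0101 with voom), and *Inhba* in that from before culture to 24 h (0.64, voom). With a library left out, values went from -0.0420 to 0.18 for *Inhbb* and -0.13 to 0.35 for *Acvr1b* in XX against XY cells at 72 h, from -0.15 to 0.0817 for *Acvr1b* in XY and -0.15 to 0.0226 for *Acvr2a* in XX cells over the first 24 h, from -0.61 to 0.33 for *Fst*, -0.10 to 0.11 for *Inhba*, -0.24 to 0.16 for *Inhbb* and -0.0704 to 0.10 for *Acvr1b* with MEKi at 24 h, from -0.0583 to 0.40 for *Fst*, -0.20 to 0.0523 for *Acvr2a* and -0.0075 to 0.12 for *Acvr2b* with FGFRi at 72 h, from -0.0755 to 0.30 for *Fstl3* in MEKi against FGFRi, from -0.43 to 0.10 for *Inhbb* and -0.12 to 0.18 for *Acvr1b* in FGFRi cells over time, from -0.61 to 0.50 for *Inhba* and -0.22 to 0.25 for *Acvr1b* in the XX to XY difference from before culture to 24 h and from 24 to 72 h, and from -0.29 to 0.0095 for *Acvr2a* in the MEKi effect at 72 h against 24 h. The cause was not tested.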
